A study of Mus musculus with 18 samples.

Results

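Kidney RNA of 6-wk-old outbred CD-1 mice was examined for 8 genes that podocytes use to build and hold the glomerular filter: *Nphs1*, *Magi2*, *Ptpro*, *Podxl*, *Synpo*, *Wt1*, *Col4a3*, and *Col4a4*. The genes were chosen by name, with earlier results of these data known. All 8 were found among the 78239 genes listed for each library. All 8 had at least 10 counts in every library, as did 12665 genes in total. Each of the 18 libraries came from 1 wild-type mouse. The mothers ate chow of low protein content (LP, 8%) or normal protein content (NP, 18%) while pregnant and nursing, and every pup was moved to the 18% chow when weaned at 3 wk. There were 5 males and 5 females in the LP arm and 5 males and 3 females in the NP arm. All mice of the 4 groups had received injections of cationic ferritin, a label that binds the glomerular basement membrane. The last injection preceded kidney collection by 90 min in males and by 24 h in females, so that sex and collection time cannot be told apart in any comparison of males with females. A piece of the left kidney was sequenced in bulk after poly(A) selection, so fewer podocytes and less RNA per podocyte cannot be told apart.

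The glomerular filter is made of the fenestrated endothelium, the glomerular basement membrane, and the interlocking foot processes of podocytes. The slit diaphragm, a modified cell junction built around nephrin, closes the gap between the foot processes, and an actin skeleton and a negatively charged surface coat keep the processes apart and in shape. The mature basement membrane holds a type IV collagen network of α3, α4, and α5 chains, which podocytes secrete and which is also found in the basement membranes of some tubules. Mutations in many of these genes cause nephrotic syndrome or Alport syndrome.

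The bases before the start sites of *Nphs1*, *Podxl*, and *Ptpro* are shown because these 3 genes were called higher in females than in males within each diet, as described below. Each sequence holds the 250 bases upstream of the canonical transcript start on GRCm39, 5′ to 3′ on the strand of the gene, at chr7:30158900-30159149 (plus strand), chr6:31540925-31541174 (minus strand), and chr6:137229026-137229275 (plus strand). No annotated exon falls in these 3 windows, and that of *Nphs1* lies in an intron of a longer annotated *Nphs1* transcript. Capitals mark the match to a searched motif.
Nphs1: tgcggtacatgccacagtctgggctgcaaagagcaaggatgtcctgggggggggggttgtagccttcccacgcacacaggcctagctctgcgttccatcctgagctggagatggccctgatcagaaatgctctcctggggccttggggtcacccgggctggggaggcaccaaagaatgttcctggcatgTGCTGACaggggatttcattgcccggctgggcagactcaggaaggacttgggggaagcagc
Podxl: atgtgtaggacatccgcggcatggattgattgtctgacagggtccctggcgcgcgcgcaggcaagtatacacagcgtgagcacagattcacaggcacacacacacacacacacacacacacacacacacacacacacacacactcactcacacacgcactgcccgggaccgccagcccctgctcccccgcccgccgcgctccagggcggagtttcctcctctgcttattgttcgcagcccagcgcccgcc
Ptpro: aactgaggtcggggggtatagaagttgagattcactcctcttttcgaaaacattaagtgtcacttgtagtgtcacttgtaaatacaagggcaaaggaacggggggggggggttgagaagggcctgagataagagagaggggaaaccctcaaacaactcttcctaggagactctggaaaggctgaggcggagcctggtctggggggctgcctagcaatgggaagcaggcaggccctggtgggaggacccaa

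On both strands, 5 short motifs were searched in the 250-base windows of the 8 genes and of 21770 protein-coding genes. TGCTGAC, a bZIP type of site, was present once upstream of *Nphs1*, where it begins at position -61 from the start, and in 3.24% of all windows. TAATTA, a LIM homeobox type of site, was present once upstream of *Wt1*, at position -240, and in 5.18% of all windows. GCGNGGGCG (an EGR and WT1 type of site, in 4.48% of all windows), CAGCTG (an E-box, 11.9%), and TATAAA (11.9%) were in none of the 8 windows. The matches do not overlap another motif, and a match is a run of letters and no evidence of binding. The *Col4a3* and *Col4a4* genes run in opposite directions from start sites 103 bases apart on chromosome 1, with the first exons overlapping, so no window free of exons was shown for them.

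Gene counts summed to 14050486 to 23562411 reads in a library. When libraries were clustered on all 12665 genes, LP females 1 and 2 and NP female 3 separated at the first split from the remaining 15. Several results that rest on the females, though not all, are given with and without these 3. The 3 also had the highest shares of reads mapped to several places (8.91%, 7.92%, and 12.6%), next to 7.78% in LP male 2. Counts divided by the size factors of DESeq2 are called normalized counts below. Each log2 difference and its standard error (SE) came from edgeR's quasi-likelihood test, with Benjamini-Hochberg adjustment over all genes tested. A gene was called when its adjusted p was under 0.05. Libraries are given in the order of their replicate numbers, which carries no meaning beyond the name.

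**Figure D1:**
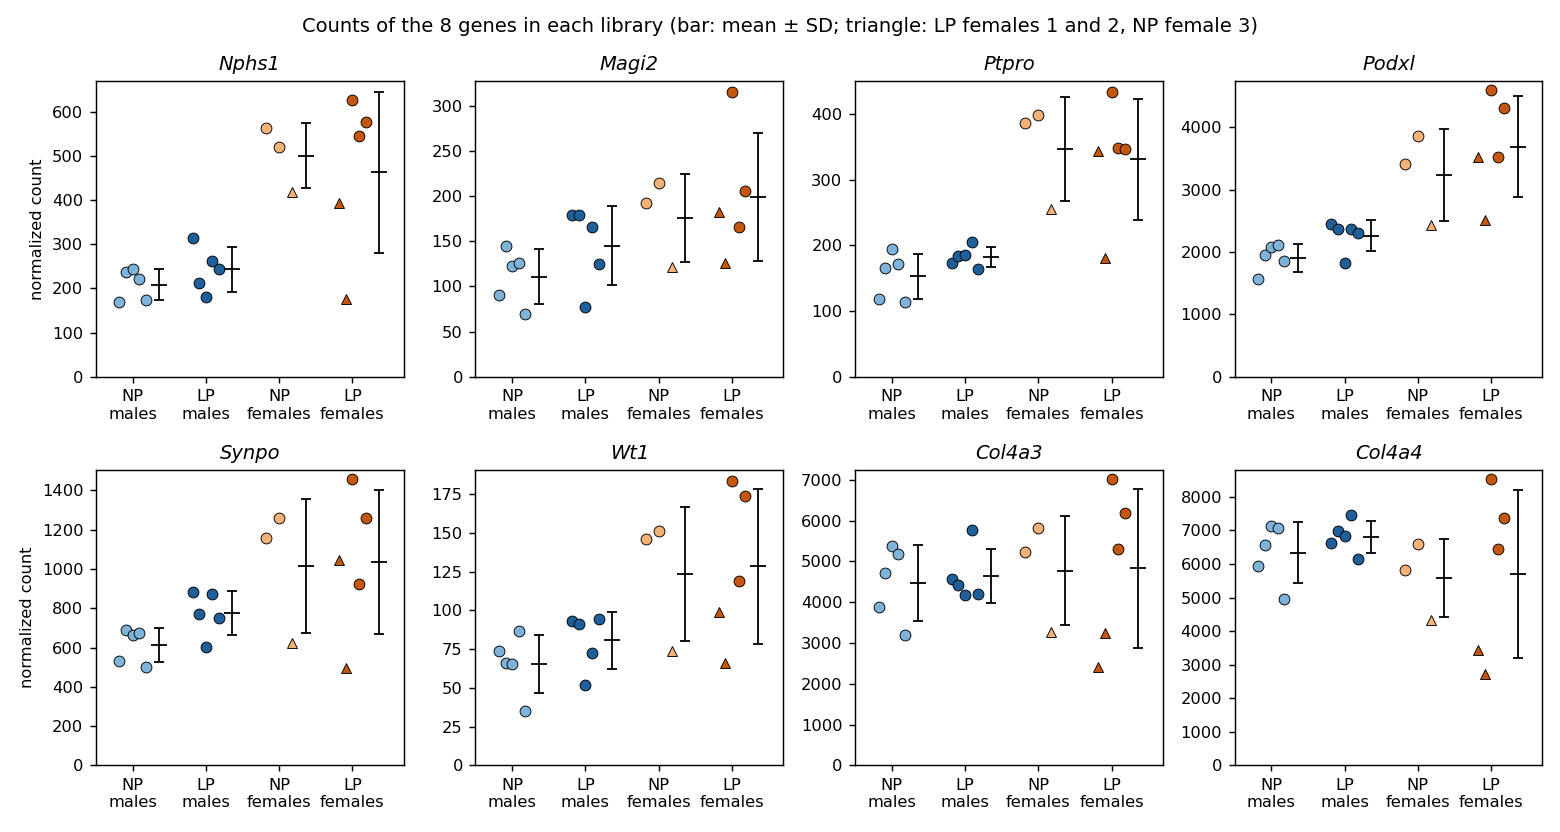
Normalized counts of the 8 genes (vertical axes, from 0) in each of the 18 libraries by group, with the mean ± SD of each group beside the points; triangles are LP females 1 and 2 and NP female 3. In the first 6 panels most females lie above the males, while for *Col4a3* and *Col4a4* the sexes overlap over most of their range.

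Levels per kb of exon, which allow a comparison between genes, spanned a wide range. The median over the 18 libraries was 576 normalized counts per kb for *Col4a4*, 465 for *Col4a3*, and 436 for *Podxl*. It was 55.1 for *Synpo*, 38.1 for *Nphs1*, 26.8 for *Ptpro*, 13.8 for *Wt1*, and 13.2 for *Magi2*. The 2 collagen genes and *Podxl* thus formed an upper set, and the gap below *Podxl* (7.91-fold between medians) was the only one across which the ranges of neighbouring genes did not overlap. *Nphs1* was above *Ptpro*, and *Ptpro* above *Wt1*, within 18 of 18 libraries, while *Wt1* and *Magi2* were not ordered, with *Wt1* the higher in 10 of 18. The order of the upper set went with sex: *Col4a3* per kb was above *Podxl* in 9 of 10 males and in 0 of 8 females. The counts of *Col4a3* leave out reads in overlaps with other genes, as given below, and those of *Podxl* hardly any. The order was not computed with such reads.

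Beginning with the slit diaphragm, *Nphs1* encodes nephrin, whose extracellular domains bridge the slit (ENSMUSG00000006649.18, chromosome 7 from 30157740 to 30186675 on GRCm39, plus strand, 6647 exonic bases). It had 169, 236, 244, 221, and 173 normalized counts in NP males and 314, 213, 181, 262, and 244 in LP males. In females it had 563, 520.3, and 419.6 normalized counts on the NP diet and 393, 176, 626, 545, and 577 on the LP diet. All females but LP female 2 were above all 10 males, and within each sex the diet groups overlapped.

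Females had 477 ± 145 normalized counts of *Nphs1* (SD, n = 8) and males 226 ± 44.9 (SD, n = 10), and the log2 difference, females minus males and adjusted for diet, was 1.07 (SE 0.19, adjusted p = 0.000185). It was 1.26 within NP mice (adjusted p = 0.00229) and 0.92 within LP mice (adjusted p = 0.0454). The reads of *Nphs1* are uncertain where the gene overlaps *Nphs1os* and the pseudogene *Rps12-ps4* on the other strand. The counting without strand dropped 22.8% of the strand-aware counts, which are the stranded columns added together. The libraries were non-directional, so such reads cannot be traced to their gene, and the strand-aware counts do not settle their origin. With those counts the difference was 1.06 (adjusted p = 0.000225).

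*Magi2* encodes a scaffold protein that binds nephrin from inside the cell (ENSMUSG00000040003.19, chromosome 5 from 19431741 to 20909790, plus strand). It had 90.6, 145, 123, 126, and 70.0 normalized counts in NP males and 179, 179, 77.7, 166, and 125 in LP males. The female libraries had 193, 215, and 121 in NP and 183, 126, 315, 166, and 206 in LP mice. The sexes overlapped, with 5 of 8 females above every male.

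The *Magi2* difference, females minus males, was 0.55 on the log2 scale (SE 0.20, adjusted p = 0.0380), the highest adjusted p of the 6 genes called. It was not called within NP mice (0.67, adjusted p = 0.138) or within LP mice (0.45, adjusted p = 0.288). The call was also lost with no filter on low counts (0.51, adjusted p = 0.0808), with the replicate number as a block (0.54, adjusted p = 0.0757), and when LP male 3, LP male 5, LP female 3, NP male 1, NP female 1, or NP female 2 was left out, with adjusted p-values of up to 0.0860. *Magi2* shares exonic bases with 2 long noncoding RNAs, and 8.14% of its strand-aware counts were not in the counts used. Here too the gene of those reads cannot be told.

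*Ptpro* encodes a receptor tyrosine phosphatase of the podocyte's apical surface, also known as GLEPP1 (ENSMUSG00000030223.15, chromosome 6 from 137229276 to 137440263, plus strand). It had 118, 165, 194, 172, and 114 normalized counts in NP males and 173, 184, 185, 205, and 164 in LP males. Its counts in females were 386, 398, and 255 in NP and 344, 181, 434, 348, and 347 in LP mice. Here too LP female 2 alone reached into the male range. The log2 difference, females minus males, was 1.00 (SE 0.15, adjusted p = 4.66e-05), and it was 1.18 within NP mice (adjusted p = 0.0106) and 0.85 within LP mice (adjusted p = 0.0102).

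*Podxl* encodes podocalyxin, the main sialomucin of the negatively charged surface coat, which endothelial and mesothelial cells also make (ENSMUSG00000025608.10, chromosome 6 from 31496418 to 31540924, minus strand). It had 1561, 1945, 2077, 2121, and 1849 normalized counts in NP males and 2453, 2374, 1821, 2369, and 2305 in LP males. In females it had 3414, 3865, and 2432 in NP and 3524, 2507, 4592, 3524, and 4317 in LP mice. Only NP female 3 lay below the highest male, LP male 1. The log2 difference, females minus males, was 0.73 (SE 0.11, adjusted p = 5.33e-05), with 0.76 within NP mice (adjusted p = 0.0169) and 0.69 within LP mice (adjusted p = 0.00837).

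*Synpo* encodes synaptopodin, an actin-associated protein of foot processes (ENSMUSG00000043079.18, chromosome 18 from 60726087 to 60793214, minus strand). It had 534, 691, 662, 672, and 502 normalized counts in NP males and 884, 772, 602, 873, and 752 in LP males. Among females there were 1156, 1259, and 623 in NP and 1047, 495, 1457, 924, and 1258 in LP mice. The females spread from below the lowest male to above the highest, with 6 of 8 above every male. The log2 difference, females minus males, was 0.55 (SE 0.17, adjusted p = 0.0166). It was not called within NP mice (0.73, adjusted p = 0.0571) or within LP mice (0.40, adjusted p = 0.254).

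*Wt1* encodes a zinc finger transcription factor that mature podocytes keep expressing (ENSMUSG00000016458.16, chromosome 2 from 104956625 to 105003961, plus strand). It had 73.7, 66.4, 65.7, 86.4, and 35.0 normalized counts in NP males and 93.2, 91.3, 52.1, 72.3, and 94.4 in LP males. Its counts in females were 146, 151, and 74.0 in NP and 99.2, 66.4, 183, 119, and 174 in LP mice. NP female 3 and LP female 2 lay within the male range and the other 6 females above it. The log2 difference, females minus males, was 0.78 (SE 0.22, adjusted p = 0.00788). Within NP mice it was 0.92 (adjusted p = 0.0872) and within LP mice 0.66 (adjusted p = 0.126), neither called. As few as 35 reads were counted on *Wt1* in 1 library, the lowest count of any of the 8 genes.

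*Col4a3* encodes the α3 chain of type IV collagen (ENSMUSG00000079465.9, chromosome 1 from 82564642 to 82699780, plus strand). It had 3877, 4707, 5391, 5187, and 3197 normalized counts in NP males and 4569, 4426, 4184, 5779.9, and 4211 in LP males. In females it had 5225, 5816, and 3269 in NP and 2419, 3247, 7019.8, 5310.5, and 6190.4 in LP mice. The females lay on both sides of the males, with LP female 1 the lowest and LP female 3 the highest of all libraries. The log2 difference, females minus males, was 0.07 (SE 0.18, adjusted p = 0.777). *Col4a3* was counted with 14.4% of its strand-aware counts left out, since it overlaps *C430014B12Rik* and *Col4a4* on the other strand. The gene of those reads cannot be told either.

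*Col4a4* encodes the α4 chain, which assembles with α3 and α5 (ENSMUSG00000067158.10, chromosome 1 from 82426144 to 82564800, minus strand). It had 5935, 6576, 7119, 7083, and 4951 normalized counts in NP males and 6625, 6982, 6835, 7447, and 6142 in LP males. In females it had 5816, 6595, and 4332 in NP and 3437, 2731, 8519.6, 6461, and 7367 in LP mice. The 3 libraries set apart were the lowest of all 18. The log2 difference, females minus males, was -0.23 (SE 0.17, adjusted p = 0.319).

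Over the 8 genes, 6 were called higher in females than in males and 0 lower, where 19.5% of the 12665 genes tested were called higher and 18.5% lower. With a change of at least 1.5-fold added to the rule, 4 of the 8 genes remained, where 18.1% of all genes did so in either direction. Within NP mice 3 were called higher (6.89% of all genes) and within LP mice 3 (8.01%). For 0 of the 8 genes did the sexes not overlap at all, against 8.27% of all genes. The median log2 difference of the 8 genes was 0.64, beside 0.05 over all genes. Without LP females 1 and 2 and NP female 3, the differences of the 6 called genes were between 0.76 and 1.32, *Col4a3* was called as well (0.37, adjusted p = 0.0191), and *Col4a4* was at 0.07 (adjusted p = 0.591).

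**Figure D2:**
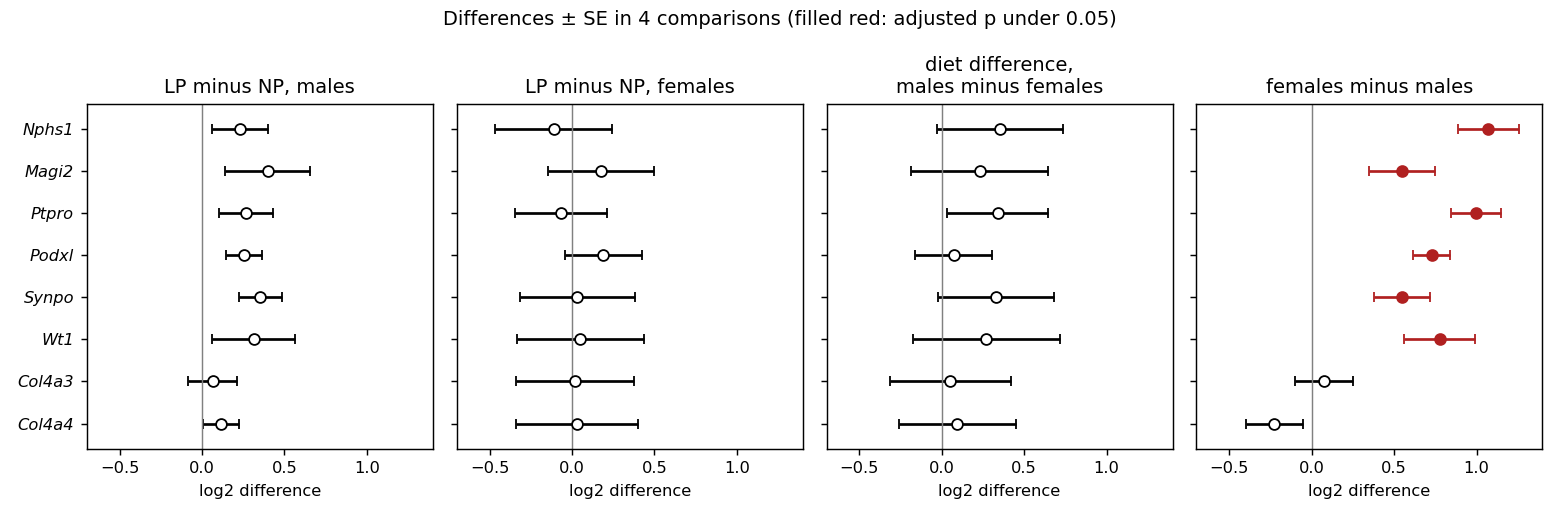
Log2 differences (horizontal axes) of the 8 genes with bars of ± SE for LP minus NP in males, LP minus NP in females, the diet difference of males minus that of females, and females minus males adjusted for diet. Filled red points had an adjusted p under 0.05, and they are the 6 genes other than *Col4a3* and *Col4a4* in the comparison of the sexes.

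The question of the study was how maternal protein restriction altered the kidney in each sex, and LP and NP mice were therefore compared within males and within females. In males, 0 of the 8 genes were called, where 0.0379% of 13181 genes were. All 8 genes had a higher mean in LP males than in NP males by the fitted difference, where 48.8% of all genes did, and their median log2 difference was 0.26 beside -0.004 over all genes. The 8 signs are not independent, because the 8 genes varied together over the same males, as given below. With 1 male left out in turn, the sign of *Col4a3* turned in 2 of 10 fits. *Synpo* differed by 0.35 (SE 0.13) and *Podxl* by 0.26 (SE 0.11), the 2 genes with an unadjusted p under 0.05 (0.0194 and 0.0365), a level reached by 3.84% of all genes. The other differences were 0.40 for *Magi2* (SE 0.26), 0.31 for *Wt1* (SE 0.25), 0.27 for *Ptpro* (SE 0.16), 0.23 for *Nphs1* (SE 0.17), 0.11 for *Col4a4* (SE 0.11), and 0.06 for *Col4a3* (SE 0.15). The adjusted p was 0.9996 for each of the 8. For *Synpo* and *Podxl*, 4 of 5 LP males were above every NP male, and LP male 3 was the exception in both. The diet groups overlapped for all 8 genes in males, where 0.675% of all genes had groups that did not overlap.

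In females, 0 of the 8 genes were called and 0% of 13510 genes were, with 4.17% of all genes at an unadjusted p under 0.05 and 0 of the 8. The log2 differences, LP minus NP, ran from -0.11 for *Nphs1* (SE 0.36) to 0.19 for *Podxl* (SE 0.23), with a median of 0.03. The approximate 95% intervals of these differences reached from -0.81 to 0.59 for *Nphs1* and from -0.65 to 0.71 for *Synpo*. The diet groups overlapped for all 8 genes, where 2.96% of all genes had groups that did not. Without the 3 libraries set apart, 0 of the 8 genes were called in females. Then 1 of the 8 was below 0, where 51.4% of all genes were, and 2 with those libraries, where 51.9% were. DESeq2's Wald test also called 0 of the 8 genes in males and in females.

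Over both sexes in 1 model, 0 of the 8 genes were called and 0% of 12665 genes were, with 5.21% of all genes and 0 of the 8 at an unadjusted p under 0.05. The lowest unadjusted p among the 8 was 0.0610, for *Podxl* (log2 difference 0.23, SE 0.11, adjusted p = 0.864). The diet difference was also compared between the sexes. 0 of the 8 genes were called in this interaction, where 0.0158% of all genes were, and 0 had an unadjusted p under 0.05, where 4.02% of all genes did. DESeq2 also called 0 of the 8 over both sexes. In the interaction DESeq2 gave an adjusted p for *Podxl*, *Col4a3*, and *Col4a4* only, and called none of them. It gave none for *Nphs1*, *Wt1*, *Synpo*, *Magi2*, and *Ptpro*, which could thus not be called. In edgeR, the diet difference of males minus that of females was between 0.05 (*Col4a3*) and 0.35 (*Nphs1*) with SEs of 0.23 to 0.45. For these genes, unequal effects of diet in males and females were thus not detected.

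The ratio of podocyte genes to collagen genes within a library does not depend on the scaling of libraries. Summed over *Nphs1*, *Magi2*, *Ptpro*, *Podxl*, *Synpo*, and *Wt1*, males had between 137 and 235 CPM (counts scaled to the library total) and females between 224 and 454. Summed over *Col4a3* and *Col4a4*, males had between 448 and 789 and females between 380 and 928. The collagen sum was between 2.73 and 3.85 times the sum of the other 6 genes in males and between 1.05 and 2.09 times in females, with no overlap. Each of the 6 genes was set against each collagen gene, which gave 12 ratios. All 12 were higher in females by an exact two-sided permutation test (log2 differences of 0.49 to 1.32, p-values adjusted over the 12 ratios between 3.92e-05 and 0.00416). The lowest of these stands for the smallest p that 8 against 10 libraries can give. For *Ptpro* to *Col4a4* the ratio was between 0.0472 and 0.100 in females and between 0.0200 and 0.0276 in males, and 8 of 8 females were above every male. Without the 3 libraries set apart, all 12 ratios were still higher in females, with adjusted p-values of up to 0.0370 in the same exact test. These ratios were chosen after the values of the genes had been seen. They share their genes, so the 12 are not independent. The 6 genes had already been called higher in females and the collagen genes had not, so the ratios add no separate support. The share of all genes with such ratios was not computed.

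**Figure D3:**
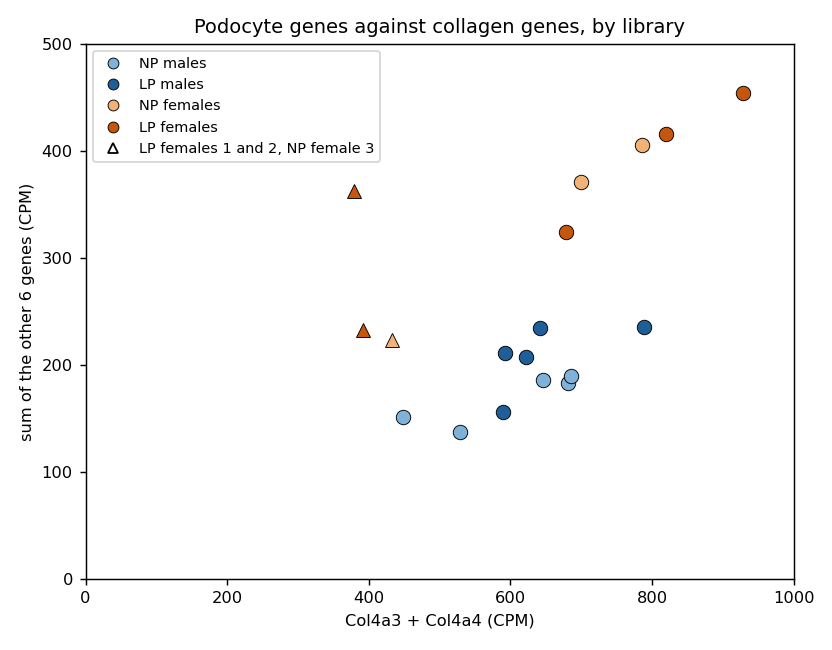
Sum of the 6 podocyte genes (vertical axis) against the sum of *Col4a3* and *Col4a4* (horizontal axis), both in CPM, with 1 point per library. At a like collagen level the females lie above the males, and the 3 triangles (LP females 1 and 2, NP female 3) have the lowest collagen sums of all 18 libraries.

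The 2 collagen chains also differed from each other. The ratio of *Col4a3* to *Col4a4* reads was 0.653, 0.716, 0.757, 0.732, and 0.646 in NP males and 0.690, 0.634, 0.612, 0.776, and 0.686 in LP males. It was 0.898, 0.882, and 0.754 in NP females and 0.704, 1.19, 0.824, 0.822, and 0.840 in LP females. LP female 1 and NP female 3 were inside the male range and the other 6 females above it. The mean was 0.864 ± 0.146 in females (SD, n = 8) and 0.690 ± 0.0547 in males (SD, n = 10), a log2 difference of 0.31 (exact two-sided permutation test, p = 0.000503). The exact test gave p = 0.0159 within LP mice, p = 0.0357 within NP mice, and p = 0.000333 without the 3 libraries set apart. With strand-aware counts the exact test gave p = 0.000548, though the gene of the overlap reads stays unknown. Between LP and NP mice the ratio did not pass the test (exact p = 0.540 in males and 0.875 in females). This ratio, too, was chosen for testing after the values had been seen.

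Next, the variation of the 8 genes among mice of one sex was measured, after the mean of each diet group had been removed. In males, Pearson's r was positive for all 28 pairs, with a median of 0.65 and a range of 0.33 to 0.94. By exact permutation of libraries within diet groups, 11 of the 28 male pairs had an adjusted p under 0.05 for r and 7 for Spearman's rho, adjusted over the 56 pairs of both sexes. Such covariation was not particular to these genes. In males, 1461 of 12657 other genes had an r over 0.8 to the mean of the 8. The share of other gene pairs that would pass was not computed. By Pearson's r the closest pairs were *Synpo* with *Magi2* (r = 0.94, rho = 0.92, adjusted p = 0.0102 and 0.0194, exact permutation) and *Col4a3* with *Col4a4* (r = 0.93, rho = 0.88, adjusted p = 0.0102 and 0.0259, exact permutation). Without the 2 males farthest from the median of the first gene, r was 0.83 for the first pair and 0.89 for the second. By rho the closest pair was *Ptpro* with *Col4a4* (rho = 0.98, r = 0.92, adjusted p = 0.0156 and 0.00778, exact permutation), with an r of 0.88 without 2 males. The r of *Ptpro* was 0.91 with *Col4a3* and 0.55 with *Nphs1*.

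*Wt1* was the gene least like the others in males. Its r was 0.73 with *Magi2* and 0.33 with *Ptpro*, and without the 2 males farthest from its median (LP male 3 and NP male 5) the r was below 0 in 6 of its 7 pairs, with a range of -0.41 to 0.02, so these relations rested on 2 libraries. The 8 females fell into the 3 libraries set apart and 5 others, both too few for a test of their own, so the female values are given as a description. Their r was between 0.62 (*Ptpro* with *Col4a3*) and 0.99 (*Podxl* with *Synpo*), with a median of 0.88.

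**Figure D4:**
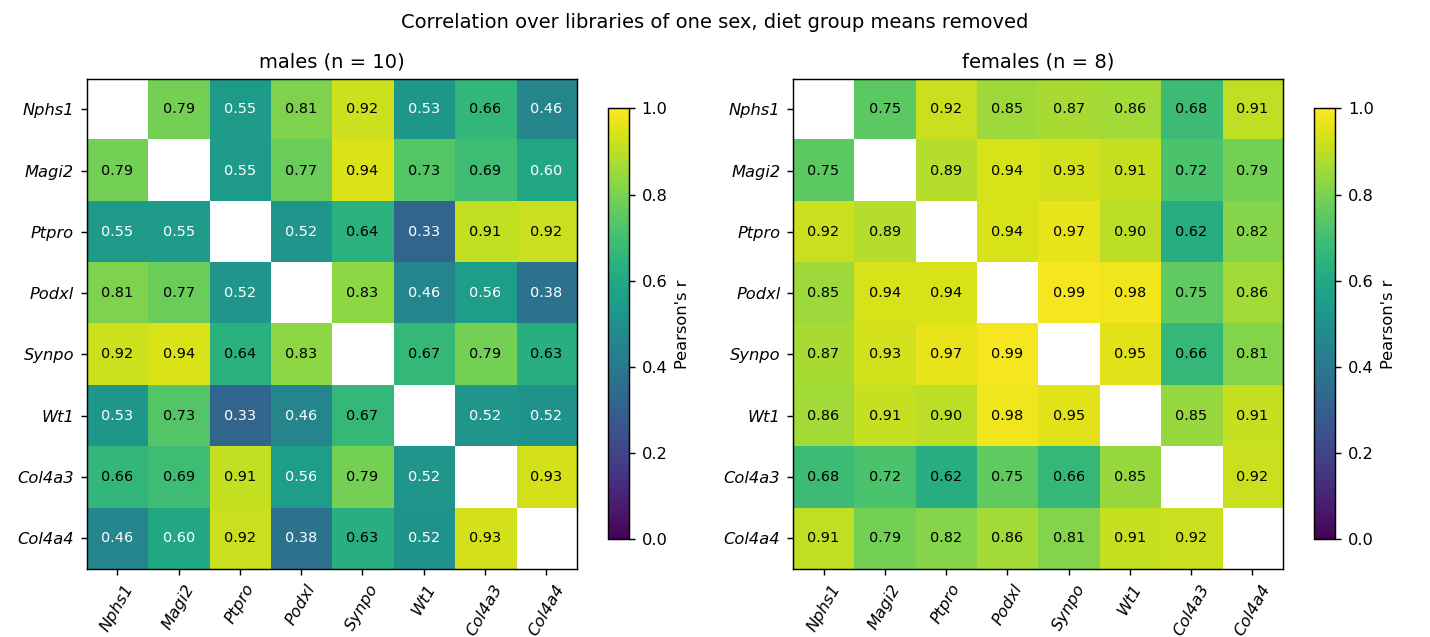
Pearson's r between each pair of the 8 genes over 10 males (left) and 8 females (right), on log2 normalized counts with diet group means removed. The lowest value in males is that of *Wt1* with *Ptpro* (0.33), and in females that of *Col4a3* with *Ptpro* (0.62).

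The genes whose pattern was most like the mean of the 8, over 18 libraries with group means removed, were *Lgr4* (r = 0.96), *Arhgap26* (0.95), *Lnpep* (0.95), *Hipk1* (0.95), *Deptor* (0.94), *Slc13a1* (0.94), *Arid5b* (0.93), *Rora* (0.93), *Acnat2* (0.93), and *Mlxip* (0.93). None of these 10 genes is in the podocyte lists, and 532 of 12657 genes had an r over 0.8. Of known podocyte genes, *Plce1* ranked 22nd (r = 0.92). The median r was 0.65 over 48 listed podocyte genes, 0.66 over the glomerular endothelial list, 0.42 over the proximal tubule list, -0.35 over the collecting duct list, and 0.02 over all genes. Without the 3 libraries set apart, it was 0.60 over the podocyte lists, 0.83 over the glomerular endothelial list, 0.44 over the proximal tubule list, -0.25 over the collecting duct list, and 0.17 over all genes, and in males alone it was 0.64, 0.83, 0.38, -0.21, and 0.19. The nearest gene without those 3 was *Cyyr1* (r = 0.96), with *Hipk1* and *Deptor* also among the first 10. These values are descriptions over libraries that share their depth and makeup.

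Other genes of the podocyte were taken from 5 lists with 53 genes, of which 48 were tested in all 4 groups. Between females and males, 13 were called higher and 3 lower in females, where 19.5% and 18.5% of all genes were, and the median log2 difference was 0.26 beside 0.05 over all genes. Without the 3 libraries set apart, 23 of the 48 were called higher and 1 lower, where 19.6% and 18.4% of all genes were. Within NP mice 7 of 48 were called higher and 0 lower (6.89% and 8.19% of all genes), and within LP mice 4 of 49 were called higher and 0 lower (8.01% and 10.9% of all genes). Of 11 slit diaphragm partners tested, 3 were higher in females, among them *Crb2* (log2 difference 1.25, SE 0.24, adjusted p = 0.000460), a polarity protein, and *Plce1* (0.68, SE 0.26, adjusted p = 0.0439), a phospholipase. *Nck2*, an adaptor that couples nephrin to actin (-0.47, SE 0.11, adjusted p = 0.00184), and *Fat1*, a giant protocadherin (-0.64, SE 0.22, adjusted p = 0.0290), were lower. Without the 3 libraries set apart, 5 of the 11 partners were called higher and 1 lower. *Kirrel2* and *Kirrel3*, relatives of nephrin, were at 0 in some libraries and were not tested.

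Of the podocyte transcription factor list, 5 of 6 tested were higher in females and 0 lower, where 19.5% and 18.5% of all genes were. Among these were *Cdkn1c*, a cell cycle inhibitor (1.04, SE 0.17, adjusted p = 8.66e-05), *Lmx1b* (0.87, SE 0.18, adjusted p = 0.000805), *Foxc2* (0.60, SE 0.19, adjusted p = 0.0187), and *Tcf21* (0.88, SE 0.28, adjusted p = 0.0196). Over 18 libraries with group means removed, r to the mean of the genes examined first was -0.62 for *Tcf21* and -0.16 for *Cdkn1c*. It was 0.48 for *Lmx1b* and 0.41 for *Foxc2*. In males alone r was -0.56 for *Tcf21*, 0.11 for *Cdkn1c*, 0.51 for *Lmx1b*, and 0.19 for *Foxc2*. *Tcf21* thus did not rise with the genes examined first. The cells that made these reads were not tested. Of 9 cytoskeletal genes, 0 were called by edgeR or DESeq2 (2 at an unadjusted p under 0.05, and 3 called higher without the 3 libraries set apart), and the most abundant were *Actn4*, an actin crosslinker, at 0.02 (SE 0.10), *Myh9*, nonmuscle myosin, at -0.19 (SE 0.23), and *Arhgdia* at -0.10 (SE 0.07). These are also made by most other kidney cells.

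Of 12 other basement membrane genes, 3 were higher in females and 0 lower, where 19.5% and 18.5% of all genes were. These were *Npnt*, encoding nephronectin (0.85, SE 0.14, adjusted p = 8.04e-05), *Lamb2* (0.47, SE 0.13, adjusted p = 0.00929), and *Lama5* (0.35, SE 0.11, adjusted p = 0.0202), which encode laminin chains of the mature membrane. Without the 3 libraries set apart, 6 of the 12 were called higher and 0 lower, beside 19.6% and 18.4% of all genes. The α5 collagen chain *Col4a5*, partner of the 2 chains above, was at 0.11 (SE 0.14, adjusted p = 0.561). Of 10 adhesion and surface genes, *Ptprd* (0.55, SE 0.16, adjusted p = 0.0105) and *Thsd7a* (0.83, SE 0.26, adjusted p = 0.0153) were higher and *Cd151*, a tetraspanin (-0.22, SE 0.07, adjusted p = 0.0211), was lower. Without the 3 libraries set apart, 4 of these 10 were called higher and 0 lower, so *Cd151* was no longer called lower. Within NP mice and within LP mice 0 of the 10 were called.

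By diet, edgeR called 0 of these genes in males, in females, over both sexes, and in the interaction. At an unadjusted p under 0.05 there were 5 of 48 in males (3.84% of all genes), 1 of 49 in females (4.17%), 2 of 48 over both sexes (5.21%), and 0 of 48 in the interaction (4.02%). The 12 basement membrane genes had log2 differences, LP minus NP, of 0.02 to 0.51 in males, all above 0, as were 48.8% of all genes. In females they were at -0.42 to -0.005, all below 0, as were 51.9% of all genes, but without the 3 libraries set apart 7 of the 12 were below 0 and 5 above, beside 51.4% of all genes below 0. Of other lists, 5 of 5 mesangial and 4 of 5 parietal epithelial genes were above 0 in males, and 4 of 5 of each were below 0 in females. Of 8 glomerular endothelial genes, 8 were above 0 in males and 6 in females, as were 8 and 6 of the 8 genes examined first. Without the 3 libraries set apart, 6 of 6 mesangial, 5 of 5 parietal epithelial, and 5 of 8 glomerular endothelial genes were below 0 in females. Genes of a list were measured in the same mice, so their signs are not independent. The lowest adjusted p of the podocyte lists in the interaction was 0.977.

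Markers of other cell types were measured beside the difference between the sexes. Of all genes tested, 19.5% were called higher in females and 18.5% lower, and 19.6% and 18.4% without the 3 libraries set apart. Of 8 glomerular endothelial genes, 0 were called by edgeR or DESeq2 and 0 had an unadjusted p under 0.05, though 1 was called higher without the 3 libraries set apart. The most abundant were *Pecam1*, a junction protein (0.09, SE 0.22), *Kdr*, a VEGF receptor (-0.20, SE 0.27), and *Flt1*, another (0.22, SE 0.22), and their list's sum was between 142 and 320 CPM in males and between 118 and 442 in females. Of 7 proximal tubule genes, 3 were lower in females (*Slc22a6*, an organic anion transporter, at -2.12, *Slc34a1*, a phosphate transporter, at -0.42, and *Hnf4a*, a transcription factor, at -0.31), with a sum of 11442 to 13954 CPM in males and 7852 to 12740.2 in females. Without the 3 libraries set apart, 2 of the 7 were called higher and 3 lower, and the median went from -0.004 to 0.30. Of 5 thick ascending limb genes, 3 were higher in females, and 5 without those libraries (*Cldn16* at 0.74, *Kcnj1* at 0.73, and *Slc12a1* at 0.64 with them), with a sum of 3092 to 5669.5 CPM in males and 3166 to 10391 in females. The 3 of 3 distal convoluted tubule genes were higher as well (*Pvalb* at 1.23, *Slc12a3* at 0.86, and *Trpm6* at 0.72), with a sum of 295 to 612 CPM in males and 622 to 1099 in females. Of 5 mesothelial genes, 1 had enough counts to be tested and was not called, *Lrrn4* and *Muc16* were at 0 in some libraries, and the sum was at most 36.2 in males and 23.5 in females. The part of these cell types in the differences of the 8 genes was not tested.

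**Figure D5:**
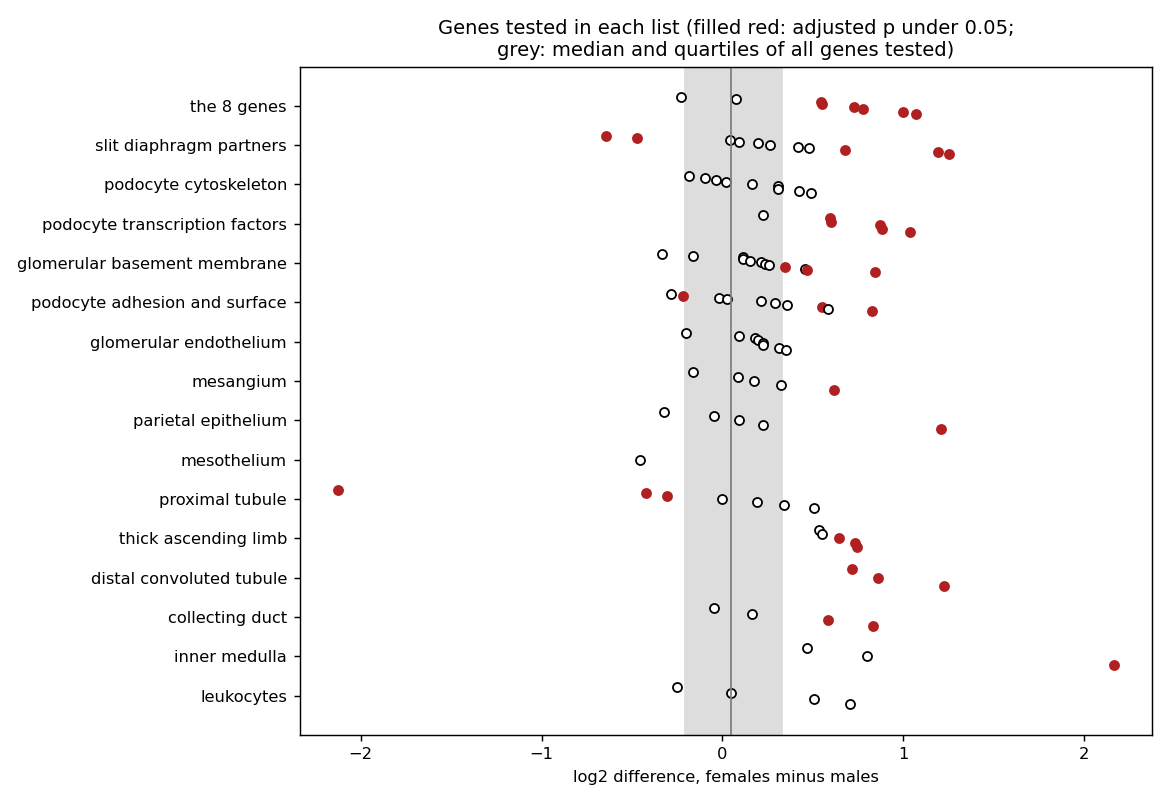
Log2 differences, females minus males (horizontal axis), of each tested gene by list, with filled red points for an adjusted p under 0.05. The grey line and band are the median (0.05) and the quartiles of all 12665 genes, and the 6 red points of the first row lie to the right of the band.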

How the data were processed

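RNA of 18 kidneys was sequenced as poly(A)-selected, non-directional bulk libraries, 1 per mouse. The authors trimmed and filtered the reads, aligned them to GRCm39 with STAR and GENCODE vM36, and deposited raw counts of reads per gene. The column counted without regard to strand was used, and reads not assigned to a gene (28.6% to 36.1% per library) were left out. Gene names and positions came from GENCODE vM39, which matched 78168 of 78239 identifiers. The labels' design text speaks of a whole kidney and the protocol of a piece of it. The 8 genes and all gene lists were chosen with earlier results of these data known.

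Counts were normalized by TMM and tested in edgeR (version 4.0.16, in R 4.3.3) by quasi-likelihood. Genes entered a comparison when each of its libraries had 10 or more counts, and p-values were adjusted by Benjamini-Hochberg. The study used DESeq2 within each sex, and DESeq2 1.42.0 was run as an alternative. Males and females were tested apart, and the comparison of the sexes included diet as a term. The SE is the log2 difference divided by the square root of F, and intervals are the difference ± 1.96 SE. Normalized counts are given as mean ± SD. The replicate numbers were checked for pairing: same-numbered LP and NP libraries correlated at a median of -0.155 in males and -0.438 in females, so tests were unpaired. Ratios and correlations were tested by exact permutation. The tests were tried on simulated counts with known changes.

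All 8 genes are named, and of each list the genes called, at most 5 per direction, or else the 3 most abundant. *Col4a5* was named after its values were seen, as the third chain of the network, as were *Kirrel2* and *Kirrel3*. Of the genes called, 2 are not reported here by name. Of the list of inner medullary genes, 3 of 4 symbols were found. Of the other lists, 1 of 5 mesangial (*Gata3*), 1 of 5 parietal epithelial (*Cldn1*), 2 of 4 collecting duct (*Scnn1g*, *Hsd11b2*), and 1 of 3 inner medullary genes (*Aqp4*) tested were higher in females, 0 of 4 leukocyte genes were called (2 at an unadjusted p under 0.05), and 5 of 5 fat genes were at 0 in some libraries and not tested. Among all genes tested, 19.5% were called higher in females and 18.5% lower. Python 3.11.15 with pandas 2.3.3, numpy 2.4.6, and scipy 1.17.1 was used. Alternatives were no filter, edgeR's filterByExpr, DESeq2's size factors, strand-aware counts, the replicate number as a block, 1 model of 4 groups, each diet alone, a 1.5-fold minimum, and leaving out each library or the 3 set apart. Per the study, the adult mice came from fewer litters than there were mice, so that some shared a litter. The labels do not give the litter, and p-values treat the mice as independent.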

Additional observations from a re-analysis of the deposited data

Results flagged for a closer look

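For each of the 8 genes, each group of 5 mice was searched for a mouse that lay far from the other 4, which chance gives in about 1 of 20 groups, and 24 groups were examined. *Podxl* in LP male 3 had 1821 normalized counts, below the other LP males (2305 to 2453). *Col4a3* in LP male 4 had 5779.9 normalized counts, above the other LP males (4184 to 4569). The interaction test of diet and sex in edgeR called 0 of the 8 genes, and 0 of them passed 0.05 before adjustment.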

How the results depend on the processing

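The 8 genes were called in none of the diet comparisons under any alternative run. In the interaction, DESeq2 gave no adjusted p for *Nphs1*, *Wt1*, *Synpo*, *Magi2*, and *Ptpro*, so they could not be called there. Of all genes, the calls in males went from 5 to 9 with no filter on low counts, 19 with DESeq2's Wald test, and 1 with all 4 groups in 1 model. In females they went from 0 to 3 with no filter, 9 with DESeq2, 1 without the 3 libraries set apart, and 2 with all 4 groups. Over both sexes they went from 0 to 8 with DESeq2 and 3 without the libraries set apart, and in the interaction from 2 to 4 with DESeq2, 0 with strand-aware counts, and 0 without the libraries set apart. Between the sexes, 4812 genes were called, 1954 within NP mice, 2505 within LP mice, and 2296 with the 1.5-fold minimum. Of the 8 genes, 6 were called between the sexes, and 3 within NP mice and 3 within LP mice (*Nphs1*, *Podxl*, and *Ptpro* in both), where fewer libraries entered. The cause of the other shifts was not tested.

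The replicate number as a block paired no animals. With the block, 2 genes were called in males and 0 in the interaction, and in females the differences, LP minus NP, were -0.17 for *Wt1*, -0.088 for *Synpo*, -0.31 for *Col4a3*, and -0.37 for *Col4a4*, all of the opposite sign to those without it. Over both sexes, *Col4a3* was at -0.00028. The block ended the call of *Magi2* between the sexes and of no other of the 8 genes.

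Signs also turned for uncalled values. In females, *Col4a3* was at -0.0020 with strand-aware counts and *Nphs1* at 0.10 without the libraries set apart, where the interaction was -0.082 for *Col4a3* and -0.13 for *Col4a4* and the difference between the sexes 0.068 for *Col4a4*.

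With each library left out in turn, 2 to 6 genes were called in males, 0 to 2 in females, 0 to 1 over both sexes, and 0 to 4 in the interaction. The diet difference of *Col4a3* then ran from -0.036 to 0.14 in males, from -0.19 to 0.20 in females, and from -0.036 to 0.11 over both sexes, and that of *Col4a4* from -0.15 to 0.22 in females and from -0.0038 to 0.15 over both sexes. In females it ran from -0.23 to 0.11 for *Nphs1*, -0.21 to 0.24 for *Wt1*, -0.22 to 0.24 for *Synpo*, -0.039 to 0.36 for *Magi2*, and -0.24 to 0.10 for *Ptpro*. The interaction ran from -0.12 to 0.26 for *Col4a3*, -0.089 to 0.28 for *Col4a4*, and -0.072 to 0.24 for *Podxl*, and the difference between the sexes from -0.0069 to 0.17 for *Col4a3*. *Nphs1*, *Wt1*, *Podxl*, *Synpo*, and *Ptpro* were called between the sexes in 18 of 18 such comparisons and *Magi2* in 12. Of the 28 correlations in males, 11 had an adjusted p under 0.05 by exact permutation, and 15 with log2(CPM + 1). Depth limits *Wt1* most, with 35 reads in 1 library.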
